A study of Mus musculus with 6 samples.

Results

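Chemokine receptor transcripts were followed in cells of the calvaria (the skull vault) that had been sorted by their EGFP from CX3CR1-EGFP reporter mice. The 8 genes were taken as a list of names: Cx3cr1, Ccr1, Ccr2, Ccrl2, Cxcr2, Cxcr3, Cxcr4 and Ccr7, of 23284 genes listed in each library and of 24 chemokine receptors among them. All 8 were found. Both groups of mice carried the CX3CR1-EGFP reporter and had received lipopolysaccharide (LPS), a bacterial product that provokes inflammation, at the calvarial periosteum. One group received 10 mg/kg CTLA4-Ig (abatacept), a fusion protein that blocks CD28 costimulation of T cells by occupying CD80 and CD86, and the control group 10 mg/kg whole human IgG. Cells were sorted 5 days later, and 3 RNA-seq libraries were made per group. The strain, age and sex of the mice, and whether they carried one or both reporter alleles, are not stated in the labels. The titles call the libraries biological replicates without tying them to animals. The p-values set the group difference against the spread between these libraries. Whether that spread lies between animals or is in part technical is not stated.

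Chemokine receptors are seven-pass membrane proteins that couple mainly to inhibitory G proteins and steer leukocytes along gradients of chemokines. CCR2 brings classical monocytes out of the bone marrow, CX3CR1 is high on patrolling (non-classical) monocytes and marks osteoclast precursors, and CXCR2 and CXCR4 act in opposition on neutrophils, the first drawing them out of the marrow and the second holding them there. CCR1 serves monocytes, neutrophils and osteoclast precursors, CXCR3 activated T cells and NK cells, and CCR7 dendritic cells and T cells bound for lymph nodes. CCRL2 is an atypical relative that binds chemerin and does not signal in the usual way.

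Reads shared with other genes were checked first. Of all 50-base stretches in the annotated Ccr2 transcripts (GENCODE M21, GRCm38), 1.91% also occurred in another gene on the same strand. For Ccr1, Ccrl2, Cxcr3, Cxcr4 and Ccr7 the share was 0, for Cx3cr1 0.269% and for Cxcr2 4.01%. The labels do not say how reads from such stretches were assigned.

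The sequences shown are the 250 bases before the outermost RefSeq start site (GRCm38.p6, minus strand, printed in the direction of the gene). Cx3cr1 is shown because its locus drives the reporter, Ccr1 because it was high where Cx3cr1 was low, and Ccrl2 because it was the 1 member whose groups did not overlap. Capitals mark GAGGAA, the core of sites for the myeloid factor PU.1, and GGACTTTCC, an NF-κB site, on either strand:
Cx3cr1 chr9:120068297-120068546: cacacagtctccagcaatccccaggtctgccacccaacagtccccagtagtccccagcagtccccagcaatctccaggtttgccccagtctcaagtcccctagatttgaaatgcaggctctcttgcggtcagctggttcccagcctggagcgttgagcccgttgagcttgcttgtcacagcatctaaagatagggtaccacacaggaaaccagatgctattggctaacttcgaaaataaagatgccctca
Ccr1 chr9:123968693-123968942: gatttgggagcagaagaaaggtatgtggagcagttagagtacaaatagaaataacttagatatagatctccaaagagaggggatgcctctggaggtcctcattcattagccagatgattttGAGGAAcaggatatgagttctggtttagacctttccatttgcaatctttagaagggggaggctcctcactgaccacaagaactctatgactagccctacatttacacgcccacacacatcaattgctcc
Ccrl2 chr9:111057519-111057768: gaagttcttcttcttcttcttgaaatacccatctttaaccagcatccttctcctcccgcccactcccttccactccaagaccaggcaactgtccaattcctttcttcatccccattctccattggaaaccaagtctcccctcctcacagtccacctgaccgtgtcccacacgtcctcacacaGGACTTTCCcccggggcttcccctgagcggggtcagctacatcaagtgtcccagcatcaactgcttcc
GGACTTTCC occurred in Ccrl2 alone of the 7 members matched to the promoter table, starting 68 bases before the start site, and in 0.281% of 27025 promoters of the same length. GAGGAA occurred in 3 of the 7, Ccr1, Cxcr2 and Cxcr3, against 23.1% of all promoters. GAGGAAGT, a longer PU.1 site, occurred in Cxcr3 alone of the 7 and in 2.42% of all promoters. TTGCNNAA, a C/EBP site, occurred in 0 of the 7 and in 9.55% of all promoters. For Ccr2 the 250 bases searched (124101933 to 124102182) lay inside the RefSeq bounds of the gene, which start at 124101918, and not before them. GAGGAAGT contains GAGGAA, and the other motifs do not overlap each other. All were picked with the sequences in view, and a match is a description of these letters only.

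Of the members, 4 lie on chromosome 9. Cx3cr1 spans bases 120048683 to 120068296 and Ccrl2 111054834 to 111057518, where its nearest coding gene is Ltf, the lactoferrin gene of neutrophil granules, 11719 bases away. Ccr1 (123962126 to 123968692) and Ccr2 (124101918 to 124109140) sit among other receptor genes with much lower levels. The order was Ccr9 (a mean of 2.40 FPKM over the 6 libraries), Cxcr6 (0.682), Xcr1 (0.701), Ccr1 (87.2), Ccr3 (0.821) and Ccr2 (365). Cxcr2 (74153994 to 74161246) and Cxcr4 (128588199 to 128592299) are on chromosome 1, Ccr7 (99144199 to 99155077) is on chromosome 11 and Cxcr3 (101731535 to 101734147) on the X chromosome. In GENCODE a long Cx3cr1 model overlaps several neighbouring genes, including an antisense RNA, so the value of Cx3cr1 is uncertain to the extent that reads of these genes were shared out among them.

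Values are FPKM, fragments scaled for transcript length and library size, so levels can be compared between genes. Judged by the steps between low values, depth was 8630000 to 10470000 fragments under CTLA4-Ig and 8860000 to 9390000 in the controls. The cells labelled CX3CR1-EGFP+ held transcripts of several myeloid types. Of 14 measured neutrophil markers 14 had a mean of at least 1 FPKM, with summed levels of 174583 to 241021 FPKM under CTLA4-Ig and 135403 to 154406 in the controls. S100a8 and S100a9 dominated these sums, with means of 71438 and 64702 FPKM over the 6 libraries. All 10 non-classical and all 8 classical monocyte markers were above that level too, as were 6 of 8 T cell, 6 of 7 NK cell and 2 of 7 B cell markers. So were 7 of 8 macrophage, 6 of 8 dendritic cell and 7 of 8 eosinophil, basophil and mast cell markers. The last of these lists summed to 780 to 1260 FPKM under CTLA4-Ig and 637 to 939 in the controls. Of 8 osteoclast markers 3 were above it, and Oscar was listed at 0 in all 6 libraries.

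The receptor repertoire was made up mostly of Ccr2 and Cxcr4. Among 24 chemokine receptors measured, the 8 members held 97.6 to 98.0% of the summed FPKM in each library, with Ccr2 at 42.8 to 54.0% and Cxcr4 at 29.1 to 35.8%. Ccr1 held 7.86 to 15.8%, Cxcr2 2.43 to 6.26% and Cx3cr1, the gene whose reporter defined the sort, 1.55 to 3.93%. Ccr2 ranked 248 and Cxcr4 355 among all genes by mean FPKM, against 3911 for Cx3cr1. The labels do not say whether the reporter alleles still make Cx3cr1 RNA. Its level and rank may therefore differ from those in cells without the reporter. The sum over the family ran from 709 to 826 FPKM, so its total differed little between libraries.

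**Figure D1:**
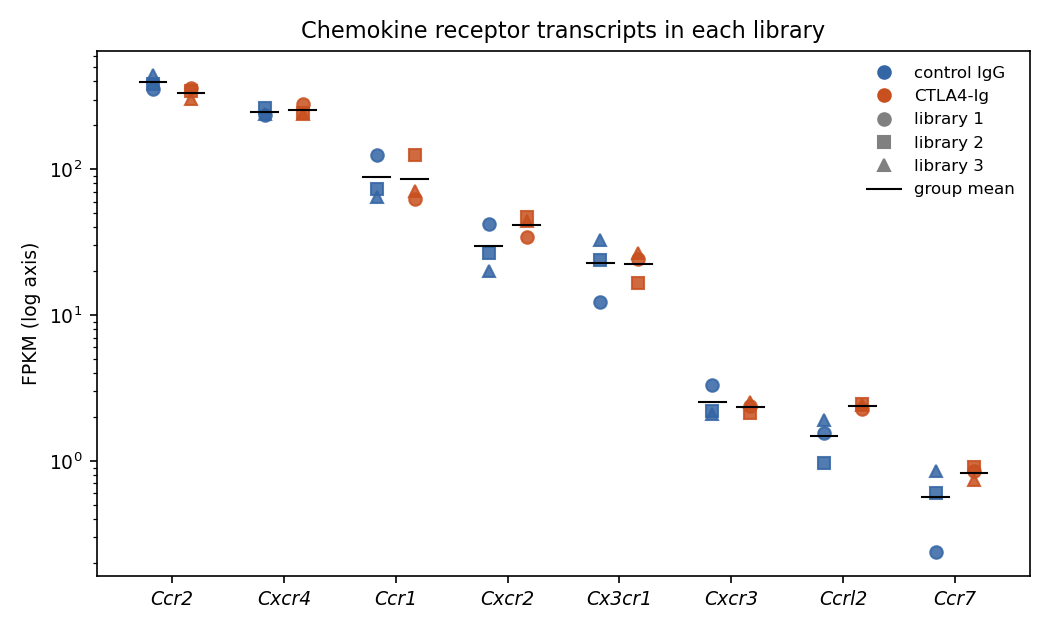
FPKM on a log axis of the 8 chemokine receptors in each of the 6 libraries; points are libraries, shapes give the library number, colours the group and black lines the group means. The 6 points of Ccr2 (304 to 446) and of Cxcr4 (236 to 281) lie above those of all other members, and the points of Ccrl2 are the only ones in which the groups do not overlap.

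In order of the mean over the 6 libraries the members were Ccr2 (365 FPKM), Cxcr4 (250.4), Ccr1 (87.2), Cxcr2 (35.7), Cx3cr1 (22.6), Cxcr3 (2.44), Ccrl2 (1.93) and Ccr7 (0.698). The ranges of neighbours in this order were separate for 5 of the 7 neighbouring pairs, with the upper gene above the lower in 6 of 6 libraries. Cxcr2 and Cx3cr1 overlapped, with Cxcr2 above Cx3cr1 in 5 of 6 libraries, and so did Cxcr3 and Ccrl2, again with 5 of 6. Spread differed widely: the coefficient of variation over the 6 libraries was 7.02% for Cxcr4 and 12.9% for Ccr2, but 31.7% for Cx3cr1, 34.3% for Ccr1 and 35.8% for Ccr7. Ccr7 rested on an estimated 4 to 16 fragments per library and Cxcr3 on 32 to 51, so their spread includes counting error. Ccr1 rested on 1657 to 3155 fragments.

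**Figure D2:**
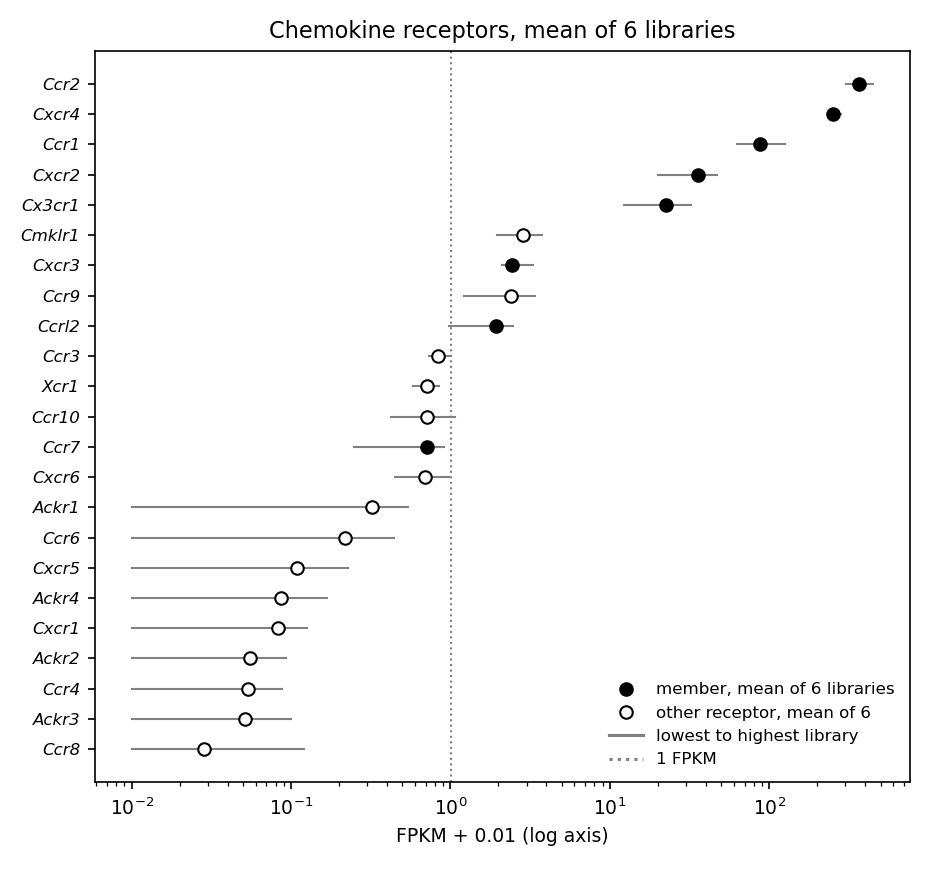
Mean FPKM + 0.01 over the 6 libraries, on a log axis, of the chemokine receptors measured, without 1 that is not reported here; lines run from the lowest to the highest library, filled points are the 8 members and the dotted line marks 1 FPKM. Above 1 FPKM lie 7 members, Cmklr1 and Ccr9.

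The groups were compared to see whether these receptors differ after CTLA4-Ig, since the study's title names cellular movement. None of the 8 passed the test. Values were compared as log2(FPKM + 1) with limma over the 10865 genes that averaged 1 FPKM or more, which 7 members did; this scale understates changes of low genes. At a Benjamini-Hochberg adjusted p under 0.05 limma called 0 of the 7 members and 0% of all genes. At an unadjusted p under 0.05 it gave 1 member, Ccrl2, which was higher with CTLA4-Ig, and 6.07% of all genes, 4.09% higher and 1.98% lower. The groups did not overlap in that same member, with CTLA4-Ig higher, as in 6.5% of all genes, while 5.69% were lower without overlap. Differences between groups in bulk RNA do not tell fewer cells of a type from less RNA per cell.

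Cx3cr1, the fractalkine receptor gene, stood at 24.1, 16.6 and 26.5 FPKM in CTLA4-Ig libraries 1, 2 and 3 and at 12.3, 23.8 and 32.5 in control libraries 1, 2 and 3. The controls enclosed all 3 CTLA4-Ig libraries, and the lowest and the highest value of the gene were both controls. The log2 difference was 0.05 ± 0.34 (SE; limma, adjusted p = 0.990), with a 95% interval of 0.591 to 1.81 as a fold, so a change of that size in either direction was not detectable with these libraries. Its sign turned with single libraries: it was -0.32 without control library 1, -0.081 without CTLA4-Ig library 3 and -0.016 without CTLA4-Ig library 1. Because EGFP from this locus set the sort, the level describes cells that had already been selected for reporter activity.

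Ccr2, the receptor for CCL2 and the entry signal of classical monocytes, stood at 361, 343 and 304 FPKM under CTLA4-Ig and at 357, 381 and 446 in the controls. Control libraries 2 and 3 lay above all CTLA4-Ig libraries and control library 1 lay just under CTLA4-Ig library 1, so the groups overlapped at that 1 point. The log2 difference was -0.23 ± 0.10 (SE; limma, unadjusted p = 0.0660, adjusted p = 0.848), with a 95% interval of -0.48 to 0.02. The direction was the same in all 16 alternative fits, from -0.32 to -0.14, but other filters, other priors and a replicate block cannot change this estimate. Leaving out 1 library at a time, it ran from -0.30 without control library 1 to -0.14 without control library 3. Of the other classical monocyte markers 7 of 7 also had a negative log2 difference, where 47.7% of all genes tested had a positive one. The 7 ran from -0.93 ± 0.45 for Vcan to -0.015 ± 0.075 for Ly6c2 (SE), so the count includes a gene that hardly differed. The median was -0.38 over the list of 8 that includes Ccr2, against -0.01 over all genes tested. Of these 8, 0 were without overlap and 1 was lower at an unadjusted p under 0.05 in limma (1.98% of all genes were). Control library 1 was the highest of the 6 libraries in 6 of the 7 other markers, whereas for Ccr2 it was the lowest control.

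Ccr1, a receptor for CCL3 and CCL5, stood at 62.9, 125 and 70.8 FPKM under CTLA4-Ig and at 126, 73.7 and 65.0 in the controls. Each group held 1 high library, CTLA4-Ig library 2 and control library 1, and the other 4 lay between 62.9 and 73.7 FPKM. The log2 difference was -0.04 ± 0.32 (SE; limma, adjusted p = 0.993), and it was 0.25 without control library 1 and -0.33 without CTLA4-Ig library 2.

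Ccrl2, the atypical chemerin-binding receptor, stood at 2.26, 2.46 and 2.43 FPKM under CTLA4-Ig and at 1.55, 0.965 and 1.91 in the controls. All 3 CTLA4-Ig libraries lay above the highest control, and they lay closer together (2.38 ± 0.105, SD, n = 3) than the controls did (1.47 ± 0.475, SD, n = 3). The log2 difference was 0.47 ± 0.16 (SE; limma, unadjusted p = 0.0239, adjusted p = 0.732), with a 95% interval of 0.08 to 0.86, and a two-sided exact permutation test gave p = 0.1, the smallest that 3 against 3 allows. In limma fits that left out CTLA4-Ig library 2, CTLA4-Ig library 3 or control library 2, the unadjusted p was above 0.05, and the difference was 0.31 without control library 2. Depending on the transcript, a value of Ccrl2 rested on 5 to 62 fragments. Ltf, its nearest coding gene, stood at 2843, 3963 and 2898 FPKM under CTLA4-Ig and at 1577, 2348 and 2013 in the controls, also without overlap. The neutrophil markers given above, which include Ltf, were higher in sum in every CTLA4-Ig library than in any control. S100a8 and S100a9 dominated that sum, and the part of the neutrophil markers in the value of Ccrl2 was not tested.

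Cxcr2, the neutrophil receptor for CXCL1 and CXCL2, stood at 34.2, 46.8 and 44.3 FPKM under CTLA4-Ig and at 42.3, 26.4 and 20.1 in the controls. Control library 1 lay among the CTLA4-Ig libraries and the other 2 controls lay below them all. The log2 difference was 0.53 ± 0.26 (SE; limma, unadjusted p = 0.0784, adjusted p = 0.848), and leaving out 1 library at a time it ran from 0.30 without control library 3 (limma, unadjusted p = 0.227, adjusted p = 0.869) to 0.82 without control library 1 (limma, unadjusted p = 0.00210, adjusted p = 0.554). Over the 14 neutrophil markers measured, 12 had a positive difference (47.7% of all genes tested did) and 9 did not overlap, all higher with CTLA4-Ig (6.5% of all genes tested), with a median log2 difference of 0.53; the part of this in Cxcr2 was not tested. Its relative Cxcr1 was at or near 0, with at most 0.116 FPKM in any library.

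Cxcr4, the receptor for the marrow chemokine CXCL12, was the steadiest member, at 281, 243 and 241 FPKM under CTLA4-Ig and 236, 262 and 240.5 in the controls. CTLA4-Ig library 1 was the highest of the 6 and the remaining libraries were interleaved. The log2 difference was 0.05 ± 0.08 (SE; limma, adjusted p = 0.947), with a 95% interval of 0.906 to 1.18 as a fold, the narrowest interval among the members.

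Cxcr3, the receptor of activated T cells and NK cells, stood at 2.36, 2.13 and 2.55 FPKM under CTLA4-Ig and at 3.30, 2.21 and 2.09 in the controls, a log2 difference of -0.06 ± 0.15 (SE; limma, adjusted p = 0.976). Control library 1 was the highest and the other 5 lay within 2.09 to 2.55 FPKM; without that library the difference was 0.086. Beside it, the sum of 8 T cell markers was 12.4 to 16.2 FPKM under CTLA4-Ig and 9.62 to 20.6 in the controls, and control library 1 held the lowest of these sums. The 7 NK cell markers summed to 94.3 to 140 FPKM and 114 to 133, dominated by Nkg7.

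Ccr7, which guides dendritic cells to lymph nodes, did not reach 1 FPKM in any library, at 0.850, 0.903 and 0.739 under CTLA4-Ig and 0.238, 0.601 and 0.855 in the controls. The highest control lay within the CTLA4-Ig range and control library 1 was far below it. A two-sided exact permutation test on log2(FPKM + 1) gave p = 0.3. With no filter on low values the log2 difference was 0.25 ± 0.15 (SE; limma, adjusted p = 0.949).

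**Figure D3:**
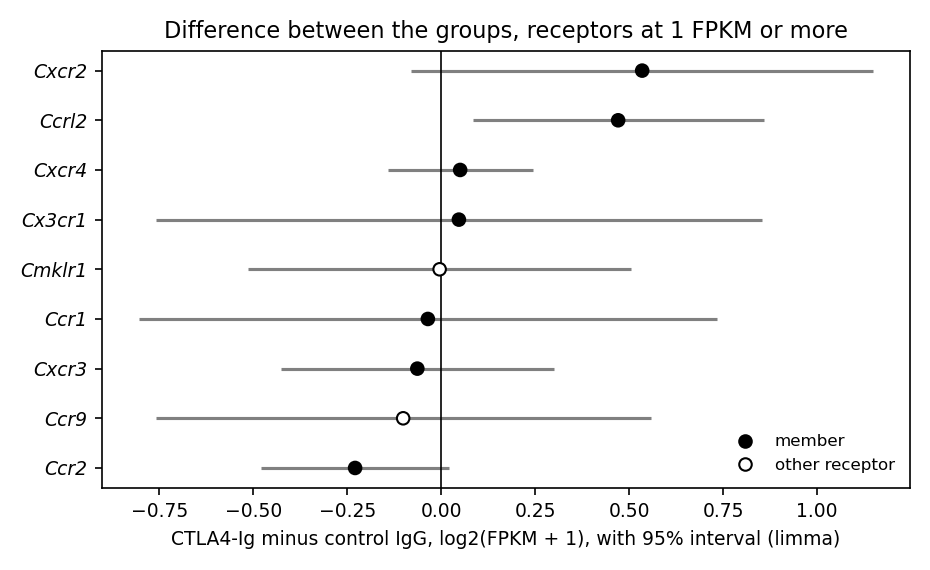
Difference in log2(FPKM + 1) between CTLA4-Ig and control IgG with limma's 95% interval, for 7 members, Ccr9 and Cmklr1; filled points are members. The interval of Ccrl2 (0.08 to 0.86) lies above 0 before adjustment, and those of Cx3cr1 and Ccr1 are wide on both sides of 0.

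Variation between libraries of the same group was larger for Cx3cr1 and Ccr1 than the difference between the groups, and it ran in opposite directions. CTLA4-Ig library 2 and control library 1 had the highest Ccr1 and the lowest Cx3cr1, at 7.53 and 10.2 times as much Ccr1 as Cx3cr1 in FPKM, against at most 3.10 times in the other 4 libraries. Control library 1 also had the lowest value of 8 of 9 other non-classical monocyte markers, with a summed level of 359 FPKM against 476 to 611 in the other libraries. It had the highest value of 6 of 7 other classical monocyte markers, among them Chil3 (Ym1, a chitinase-like secreted protein) at 14245 FPKM against 4186 to 5521. CTLA4-Ig library 2 had the second lowest sum of the non-classical markers, 476 FPKM, and was below the mean of the 6 libraries in 6 of the 9. Control library 1 was below that mean in 9 of 9 and the remaining libraries in 1 to 5 of 9, with 5 in CTLA4-Ig library 1. CTLA4-Ig library 2 was the lowest of the 6 libraries in 0 of these 9. Its sum of the other classical markers was 8423 FPKM, against 18640 in control library 1 and 7631 to 9203 in the remaining libraries. Without these 2 libraries together, an alternative chosen after seeing the data, the log2 difference was -0.13 for Cx3cr1 and -0.05 for Ccr1, and limma gave 0 members at an adjusted p under 0.05 and 2 at an unadjusted p under 0.05.

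**Figure D4:**
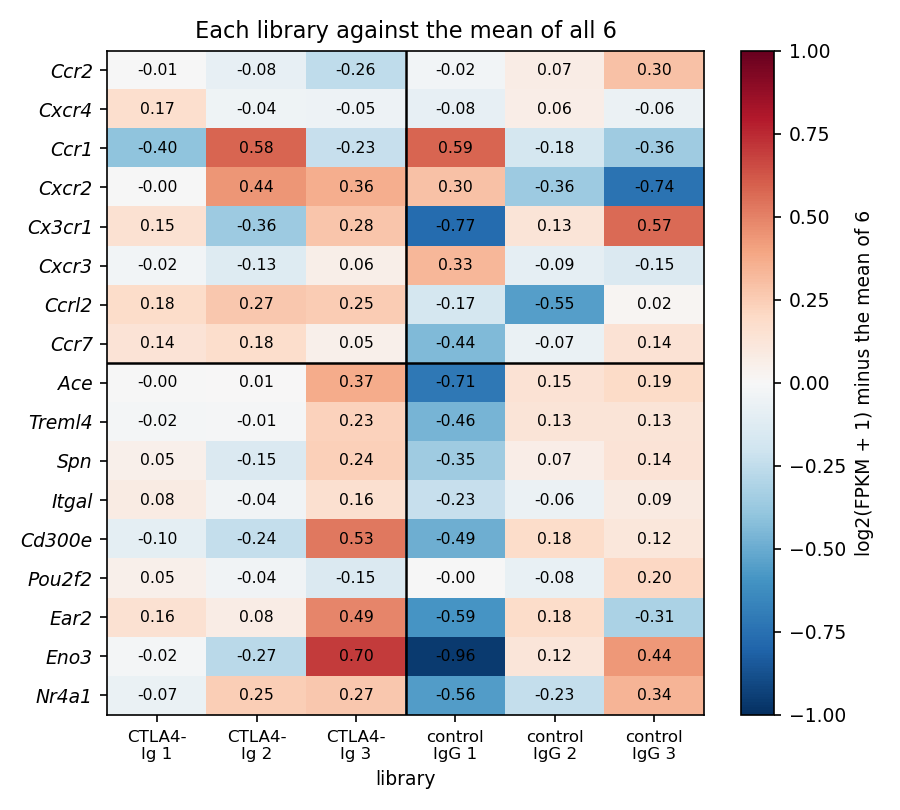
Each library's log2(FPKM + 1) minus the mean of the 6 libraries, for the 8 members (above the line) and 9 further non-classical monocyte markers (below it); red is above and blue below the mean, and numbers give the value. Ccr1 is red and Cx3cr1 blue in CTLA4-Ig library 2 and control library 1. Of the 9 non-classical markers 9 are below the mean in control library 1, 6 in CTLA4-Ig library 2 and 5 in CTLA4-Ig library 1.

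Of the other receptors described, Ccr9 and Cmklr1 averaged 1 FPKM or more. Ccr9 stood at 2.22 ± 0.421 FPKM under CTLA4-Ig and 2.59 ± 1.21 in the controls, and Cmklr1, the signalling chemerin receptor, at 2.84 ± 0.868 and 2.83 ± 0.795 (SD, n = 3). Both overlapped between groups, and their log2 differences were -0.10 ± 0.28 and -0.0043 ± 0.21 (SE). A further 13 receptors had means of at most 0.821 FPKM.

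Transcripts of some ligands of the members were present in the same libraries, which do not show whether the same cells held both. Of 23 ligand genes measured 12 averaged 1 FPKM or more, 8 with a positive and 4 with a negative difference and a median of 0.01. Ccl6 and Ccl9, mouse ligands of CCR1, were the most abundant together with Mif, a ligand of CXCR2 and CXCR4: Ccl6 stood at 245 ± 18.9 against 242 ± 28.1 FPKM, Ccl9 at 140.4 ± 27.2 against 168 ± 12.6 and Mif at 122 ± 16.2 against 144 ± 17.1 (SD, n = 3). The fractalkine gene Cx3cl1 did not exceed 0.0687 FPKM in any library, and Cxcl12 stood at 2.89 ± 1.44 and 2.43 ± 0.352 FPKM. Ccl8 had a log2 difference of 1.08 ± 0.33 (SE; limma, unadjusted p = 0.0136, adjusted p = 0.720), the 1 of 12 ligands under 0.05 before adjustment, where 6.07% of all genes were. That count was 0 without CTLA4-Ig library 2, 3 without CTLA4-Ig library 3 and with the replicate numbers as a block, and 2 without control library 3. It stood at 1.32, 3.86 and 4.60 FPKM under CTLA4-Ig and 1.04, 0.638 and 0.998 in the controls. Its groups did not overlap, but CTLA4-Ig library 1 lay close to the controls.

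Downstream of the receptors, 19 of 19 G protein and migration signalling genes were tested, 12 with a positive and 7 with a negative difference (47.7% of all genes were positive), a median of 0.03 and 5 without overlap, all higher with CTLA4-Ig (6.5% of all genes). In limma 2 had an unadjusted p under 0.05 (6.07% of all genes) and 0 an adjusted p under 0.05, and the first count was 1 without CTLA4-Ig library 2 or without control library 1. Rac2, a small GTPase of leukocyte migration, showed a log2 difference of 0.26 ± 0.07 (SE; limma, unadjusted p = 0.00650, adjusted p = 0.720). Plcb2, a phospholipase driven by G proteins, had 0.26 ± 0.08 (limma, unadjusted p = 0.0198, adjusted p = 0.724). The inhibitory α subunit gene Gnai2 was the most abundant, at 663 ± 21.4 against 619 ± 13.2 FPKM (SD, n = 3), with no overlap and a log2 difference of 0.10 ± 0.06 (SE).

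Of 12 genes that switch receptors off, the receptor kinases, arrestins and RGS proteins, 11 had a positive and 1 a negative difference, with a median of 0.14, where 47.7% of all genes tested were positive. Of these 12, 1 had an unadjusted p under 0.05 in limma (6.07% of all genes did) and 0 an adjusted p under 0.05. The count of 1 became 0 without CTLA4-Ig library 2, 4 without CTLA4-Ig library 3, 3 without control library 1 and 2 without control library 2 or 3. The gene with all 6 libraries was Arrb2, β-arrestin 2, at 215, 263 and 242 FPKM under CTLA4-Ig and 212, 189 and 171 in the controls, a log2 difference of 0.33 ± 0.10 (SE; limma, unadjusted p = 0.0155, adjusted p = 0.720). Rgs19, which shortens inhibitory G protein signals, stood at 163 ± 8.99 against 147 ± 6.44 FPKM and Grk2, a receptor kinase listed as Adrbk1, at 230.1 ± 14.5 against 205 ± 16.6 (SD, n = 3). Arrb2 and Rgs19 did not overlap between groups and Grk2 did. Neutrophil markers were higher in the same CTLA4-Ig libraries, and their part in these values was not tested.

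The genes whose pattern over the 6 libraries was most like that of a member were searched among 6536 others that averaged 10 FPKM or more, by Pearson's r on log2(FPKM + 1). With 6 points and this many genes very high values of r are common, so these are descriptions. Nearest to Cx3cr1 were Adcy7 (r = 0.997), Glipr1 (0.994) and Bloc1s2 (0.994). Nearest to Ccr2 were Nup93, B4galt7 and Nipbl, with r of 0.995, 0.995 and 0.988. Nearest to Cxcr2 were Cpne2, Mgst1 and Pdlim2, with r of 0.998, 0.993 and 0.992, and nearest to Cxcr4 were Brd9, Uhrf1 and Taz, with r of 0.976, 0.959 and 0.958.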

How the data were processed

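Per the labels' protocols, the 6 libraries came from miRNeasy RNA and a TruSeq stranded mRNA preparation. The submitters' processing notes list Cuffnorm 2.2.1, TopHat2 2.0.13, SAMtools 0.1.19 and Bowtie2 2.2.3 and the build mm10, without their settings, the annotation or whether strand was used. The authors deposited FPKM, scaled between libraries, for each gene name. Groups and replicate numbers come from the titles.

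Depth was estimated from low values of genes with 1 GENCODE transcript of at least 1500 bases; 64.3% of 1771 values under 5.5 fragments were whole within 0.1 fragment (20% if spread evenly), so read counts were not recovered and count models were not used. Log2(FPKM + 1) was tested with limma 3.58.1 in R 4.3.3 (lmFit, eBayes with trend) for genes averaging 1 FPKM or more, with the group as the 1 factor and Benjamini-Hochberg adjustment over all genes at a threshold of 0.05. The code was also run on simulated normal values drawn with limma's own variances. That setting holds no single deviant library, so it does not show how the test behaves on these libraries. Python 3.11.15, pandas 2.3.3, numpy 2.4.6 and matplotlib 3.10.9 were used besides. The members, lists and tests were chosen with earlier results of these data known. Of 161 listed genes 159 were matched to the files, 9 through an older RefSeq symbol. Named genes were the 8 members, from each list of receptors, ligands and signalling genes the 3 with the smallest p and the 3 with the highest mean, 2 per marker list by mean, and the 3 genes most like Cx3cr1, Ccr2, Cxcr2 and Cxcr4; the text gives a part. Ltf, Cx3cl1, Cxcl12, Cxcr1 and other genes outside the rule were named after their values were seen. Alternatives were other pseudocounts, filters, scalings and priors, a replicate block, and leaving out libraries. Of the family, 1 chemokine receptor is counted in the family totals and is not reported here.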

Additional observations from a re-analysis of the deposited data

How the results depend on the processing

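Of 238 values recomputed under 16 alternatives, 199 kept their direction and their side of the threshold (counts: stayed within 1.5 times), 29 counts moved and 10 log2 differences turned sign. No member reached an adjusted p under 0.05 in limma under any alternative. Leaving out 1 library at a time, the count of genes at an adjusted p under 0.05 ran from 0 to 6, none a member and all but Gm9781 with microRNA or snoRNA names, that at an unadjusted p from 338 (without CTLA4-Ig library 2) to 858 (without control library 1), against 659, and that of members from 0 to 3, against 1. Without CTLA4-Ig library 2 and control library 1 together, added after seeing the data, these counts were 1 gene at an adjusted p and 2 members at an unadjusted p. With a filter at a mean of 5 FPKM, which leaves out Ccrl2, 0 members had an unadjusted p under 0.05.

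Signs turned without CTLA4-Ig library 1 for Cx3cr1 (-0.016), Ccr1 (0.16) and Cxcr4 (-0.022), without CTLA4-Ig library 3 for Cx3cr1 (-0.081) and Ccr1 (0.072), without control library 1 for Cx3cr1 (-0.32), Ccr1 (0.25) and Cxcr3 (0.086), and without CTLA4-Ig library 2 and control library 1 together for Cx3cr1 (-0.13) and Cxcr3 (0.13). Leaving out 1 library at a time, the log2 difference ran from -0.32 to 0.34 for Cx3cr1, from -0.33 to 0.25 for Ccr1, from -0.15 to 0.086 for Cxcr3 and from -0.022 to 0.095 for Cxcr4. The cause was not tested. Ccr2, Ccrl2 and Cxcr2 kept their sign in every alternative that tested them, though filters, priors and the replicate block cannot change a difference. Deviations from the group means gave no sign that replicate numbers pair the libraries. They correlated at -0.15, -0.09 and -0.02 for numbers 1, 2 and 3 over 10865 genes, and at -0.04 to 0.13 between different numbers. With 3 libraries per group these values do not settle whether libraries were paired. With the numbers as a replicate block, limma gave 0 genes and 0 members at an adjusted p under 0.05, 619 genes at an unadjusted p and 1 member. Counting error enters the values of Ccr7, Ccrl2 and Cxcr3, which rest on few fragments; it was not set against the spread between libraries.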

Other observations

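By the same measure of likeness, used for 2 further members after their values were seen, the genes nearest to Ccr1 were Rab35 (r = 0.984), Bcat2 (0.9751) and Herpud1 (0.971), and those nearest to Ccrl2 were Wbp2 (0.986), Slc15a3 (0.983) and Rnf113a2 (0.977), over 6 libraries. Ccr1 ran from 62.9 to 126 FPKM over the libraries, and Herpud1 over a narrower range: Herpud1, a gene of the endoplasmic reticulum stress response, stood at 49.1, 59.5 and 48.1 FPKM under CTLA4-Ig and 60.04, 52.2 and 48.2 in the controls.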
